A study of Mus musculus with 8 samples.

Results

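The fatty acid binding protein genes Fabp3, Fabp4, Fabp5 and Fabp7 are described here across 8 mouse RNA sequencing libraries, as 4 of the 39009 entries of the deposited gene tables. They were taken by gene symbol, and each matched 1 entry. The 4 genes were chosen by their FPKM over these same libraries, so their levels are given as a description, with no test.

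The study compared chemically induced pluripotent stem cells (CiPSC), lines made by treating somatic cells with small molecules, with the cells they came from and with embryonic stem cells. The groups were NSC-CiPSC lines 1, 2 and 3, which were derived from neural stem cells, IEC-CiPSC lines 10 and 13, which were derived from small intestinal epithelial cells, 1 library of cultured neural stem cells at passage 2 (NSC), 1 library of IEC, primary epithelial cells of the small intestine, and 1 of ESC, the embryonic stem cell line R1. NSC and IEC were taken from E13.5 embryos. The strain given for NSC is C57BL/6J-Tg(GOFGFP)11Imeg/RbrcxICR, and the CiPSC and IEC libraries have the same strain with the number after GOFGFP running from 11 to 17 over these 7 libraries. ESC is labelled 129X1 x 129S1, so strain and cell type cannot be told apart in any comparison with ESC. Each line is 1 library. Whether lines came from separate animals is not given in the labels, and the p-values below therefore reflect line-to-line spread alone. NSC, IEC and ESC have no replicate.

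Levels are in FPKM, fragments scaled to transcript length and library size, which allows levels of different genes to be compared per length. Depth relative to ESC, as implied by the deposited intervals, ran between 0.909 and 1.04, and 12547 to 14051 genes reached an FPKM of 1. All 6 pluripotency markers examined exceeded an FPKM of 10 in each CiPSC line and in ESC, and all 6 neural stem cell markers did so in NSC. The IEC library went against its label in part. Only 2 of 6 intestinal epithelium markers (Lgals4 at 16.8 and Epcam at 15.9) reached an FPKM of 10 there, the intestinal factor Cdx2 was at 0.0912, and all 5 mesenchyme, all 5 smooth muscle and all 6 macrophage markers reached it, with Col3a1 at 2331 and Lyz2 at 2696. It is called the IEC library throughout. In bulk libraries such as these, fewer cells of a type and less RNA per cell cannot be told apart.

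Fatty acid binding proteins are small cytosolic proteins that hold a long-chain fatty acid inside a barrel of beta strands and carry it between membranes, enzymes and nuclear receptors. Fabp3 is the form of heart and striated muscle, Fabp4 the form of adipocytes, also made by macrophages and capillary endothelium, Fabp5 the form first known from epidermis, and Fabp7 the brain form, a marker of radial glia. Each tissue tends to use 1 or a few of them, and their ligands feed storage, oxidation or gene regulation through the peroxisome proliferator activated receptors.

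In mm10 the genes lie on chromosome 4 from 130308595 to 130315463 (Fabp3), on chromosome 3 from 10204347 to 10208576 (Fabp4) and from 10012548 to 10016607 (Fabp5), and on chromosome 10 from 57784881 to 57788450 (Fabp7). In GENCODE M21 the principal transcript of each has 4 exons and codes for 132 to 135 amino acids. The coding sequences are related but far from identical. Fabp3 and Fabp7 matched at 66.7% of aligned coding positions, which was the highest value of the 6 pairs, and Fabp5 and Fabp7 at 54.6%, which was the lowest. The longest stretch shared without a difference was 20 nt, between Fabp3 and Fabp7. The 60 coding bases in which the 4 genes are most alike are shown to let the family likeness be compared with the differences that separate reads of one gene from reads of another. Capitals mark the 34 bases that are the same in all 4, the stretch starts at coding base 49 (Fabp3, Fabp4, Fabp7) or 55 (Fabp5), and sequences are from GENCODE M21 transcripts.
Fabp3: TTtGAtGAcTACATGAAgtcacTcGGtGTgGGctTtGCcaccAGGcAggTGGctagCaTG
Fabp4: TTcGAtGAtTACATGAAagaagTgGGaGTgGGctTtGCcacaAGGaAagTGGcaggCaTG
Fabp5: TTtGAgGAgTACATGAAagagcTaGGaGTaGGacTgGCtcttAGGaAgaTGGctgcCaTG
Fabp7: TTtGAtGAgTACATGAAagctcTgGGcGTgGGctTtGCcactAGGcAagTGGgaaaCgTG

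By the deposited values, Fabp3 led the 4 genes in both CiPSC groups and in ESC, Fabp7 led in NSC and Fabp5 in IEC. Fabp3 made up 95.5% ± 1.23 of their summed FPKM in NSC-CiPSC (SD, n = 3) and 91.7% ± 0.234 in IEC-CiPSC (SD, n = 2), while Fabp7 made up 77.0% in NSC, Fabp5 95.6% in IEC, and Fabp3 69.3% in ESC. The sum itself also differed, from 483 to 868 in the NSC-CiPSC lines and 315 and 376 in the IEC-CiPSC lines, against 5904 in NSC, 867 in IEC and 48.6 in ESC. In NSC the 4 genes together held 0.877% of all FPKM in the library. For ESC, the lead of Fabp3 depends on how fragments were split between Fabp5 and a near-identical copy, described below. With the FPKM of such copies added, Fabp5 was at 40.8 and Fabp3 at 34.7 in ESC, a sum that gives the Fabp5 copy too much weight.

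**Figure D1:**
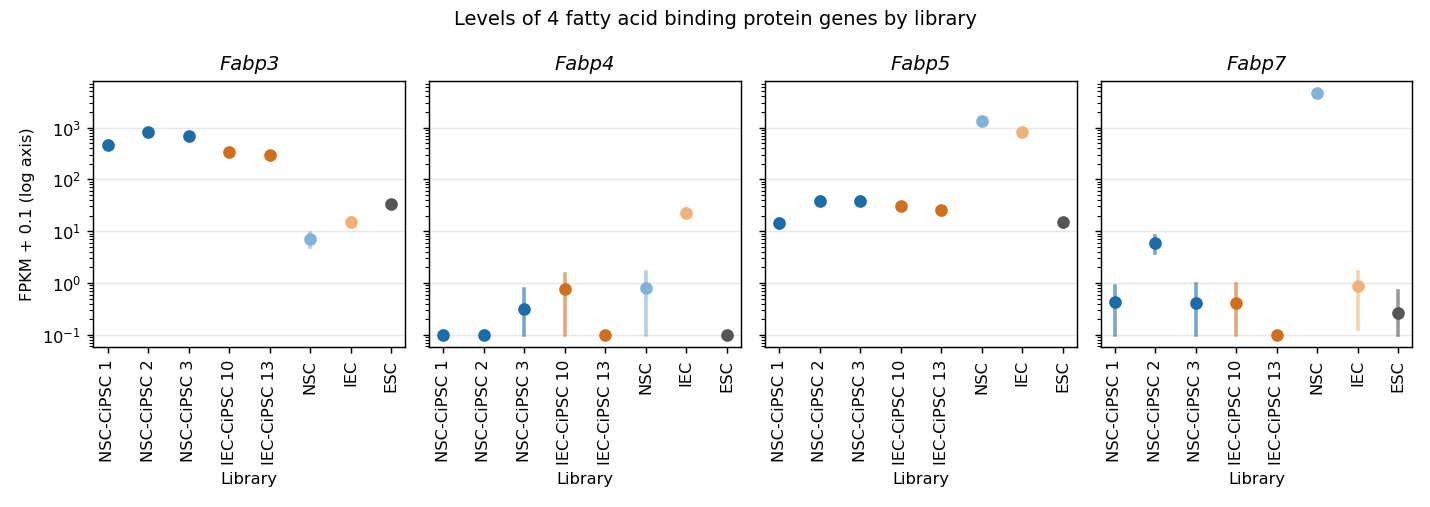
Levels of Fabp3, Fabp4, Fabp5 and Fabp7 (panels) as FPKM + 0.1 on a log axis in the 8 libraries; points are the deposited values, bars their 95% intervals within the library, and a point at the floor is a gene listed at 0. Fabp3 lies between 289 and 824 in the 5 CiPSC lines and at 7.04, 14.8 and 33.7 in NSC, IEC and ESC, whereas Fabp5 is highest in NSC and IEC and Fabp7 in NSC alone.

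**Figure D2:**
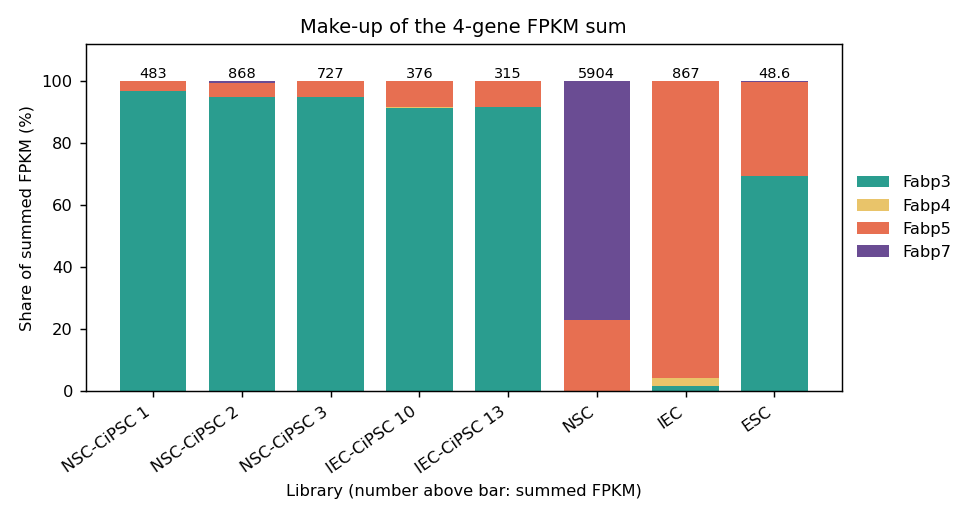
Share of each gene in the summed FPKM of the 4 genes (vertical axis, percent, from 0) in each library, with the sum above the bar. Fabp3 fills most of every CiPSC bar (on average 95.5% in NSC-CiPSC and 91.7% in IEC-CiPSC), Fabp7 77.0% of the NSC bar and Fabp5 95.6% of the IEC bar.

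Fabp7, the radial glia form, was high in NSC alone. It was at FPKM 0.327, 5.78 and 0.320 in NSC-CiPSC lines 1, 2 and 3, at 0.315 in IEC-CiPSC line 10 and listed at 0 in line 13, against 4546 in NSC (interval 4490 to 4601), 0.790 in IEC and 0.165 in ESC. In NSC it ranked 9 among 17011 genes by level. The NSC-CiPSC lines did not overlap NSC, and line 2 stood apart from the other lines, since its interval (3.71 to 7.85) was above the whole interval of each of the others. Mitochondrial transcripts made up 11.6% of the FPKM sum in NSC, against 1.94% to 6.87% in the other 7 libraries, with line 2 the lowest. The part of this in the Fabp7 values, and in the other differences from NSC, was not tested. The mean of log2(FPKM + 1) was lower by 10.96 in NSC-CiPSC than in NSC, the most negative difference of all 17011 genes, and by 0.64 in IEC-CiPSC than in IEC. NSC minus IEC was 11.31, the most positive of all genes.

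Fabp5, the epidermal form, which has been linked to delivery of retinoic acid to PPAR delta, was high in both somatic libraries. It was at 14.4, 38.5 and 37.5 in NSC-CiPSC lines 1, 2 and 3 and at 31.0 and 25.7 in IEC-CiPSC lines 10 and 13, against 1350 in NSC, 830 in IEC and 14.7 in ESC. No CiPSC line overlapped a somatic library, and NSC-CiPSC line 1 lay next to ESC. The difference of mean log2(FPKM + 1) was -5.56 in NSC-CiPSC against NSC and -4.83 in IEC-CiPSC against IEC. Of 5 keratinocyte and surface epithelium markers, 4 reached an FPKM of 10 in IEC (Krt5 at 31.6, Krt14 at 22.9, Sfn at 14.7 and Krt15 at 10.4) and none in NSC. Their sum was 46.6 to 76.3 in the NSC-CiPSC lines and 11.9 and 14.2 in the IEC-CiPSC lines, nearly all of it Sfn, against 0.650 in NSC, 80.2 in IEC and 19.6 in ESC. Their part in the Fabp5 level of IEC was not tested. The order of group means for Fabp5 ran NSC, IEC, NSC-CiPSC, IEC-CiPSC, ESC. The intervals of NSC-CiPSC and IEC-CiPSC overlapped, and the other neighbours in this order were apart. The NSC-CiPSC lines spread more widely (SD 13.7 on a mean of 30.1, n = 3) than the IEC-CiPSC lines (SD 3.71 on a mean of 28.3, n = 2).

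The comparison of Fabp5 with ESC turned on a processed copy, an intronless insertion of the spliced messenger elsewhere in the genome. GENCODE M21 holds 5 such copies of Fabp5 and 1 of Fabp3 at 85% identity or more over at least 200 nt, and none of Fabp4 or Fabp7. Gm6166 on chromosome 9 (57483913 to 57484585, mm10) matches the Fabp5 coding sequence at 98.3% over 409 aligned positions, with up to 179 nt in a row without a difference, so reads that fall in such a stretch cannot be told apart by sequence. The 60 bases in which Gm6166 differs most from Fabp5 (coding bases 334 to 393 of Fabp5) show how little separates them, and capitals mark the 2 differing positions.
Fabp5: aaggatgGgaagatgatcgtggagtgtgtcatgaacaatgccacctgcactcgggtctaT
Gm6166: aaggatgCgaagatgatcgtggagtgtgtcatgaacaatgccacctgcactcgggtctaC

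Gm6166 was at FPKM 0.526, 1.04 and 2.05 in NSC-CiPSC lines 1, 2 and 3 and at 1.21 and 0.711 in IEC-CiPSC lines 10 and 13, against 46.1 in NSC, 26.2 in IEC and 26.1 in ESC. The fragments that its interval implies came to between 1.62% and 3.28% of those of Fabp5 in the 5 lines, NSC and IEC, but to 107% in ESC, where 122.5 fragments were given to Gm6166 and 115 to Fabp5. The other 4 copies of Fabp5 were listed at 0 in all libraries. With the FPKM of the copies added, the sum was 14.9, 39.5 and 39.6 in NSC-CiPSC lines 1, 2 and 3 and 32.2 and 26.4 in IEC-CiPSC lines 10 and 13, against 40.8 in ESC. The difference from ESC was then -0.49 in NSC-CiPSC and -0.47 in IEC-CiPSC on the log2 scale, where it was 0.86 and 0.89 for Fabp5 alone. FPKM is scaled to length, and a fragment adds more to the shorter Gm6166. In ESC its 122.5 fragments gave 26.1, while 115 fragments of Fabp5 gave 14.7. The sum therefore gives the copy too much weight, most of all in ESC. The difference from ESC by fragments was not computed, so its sign with the copies is not established. Adding the copies was chosen after the values were seen. Strain and cell type cannot be told apart here, because ESC is the 1 library of the 129 background.

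The copy of Fabp3 took few fragments in any library. Fabp3-ps1 on chromosome 10 (86731754 to 86732409) matches Fabp3 at 99.3% over 402 coding positions, with 3 differences in all. Its implied fragments came to between 2.03% and 3.65% of those of Fabp3 in all 8 libraries. Of the 60 bases that hold 2 of the differences (coding bases 275 to 334 of Fabp3), the differing positions are again in capitals.
Fabp3: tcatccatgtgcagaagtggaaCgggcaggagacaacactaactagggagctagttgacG
Fabp3-ps1: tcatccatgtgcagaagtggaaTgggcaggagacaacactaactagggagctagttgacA

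**Figure D3:**
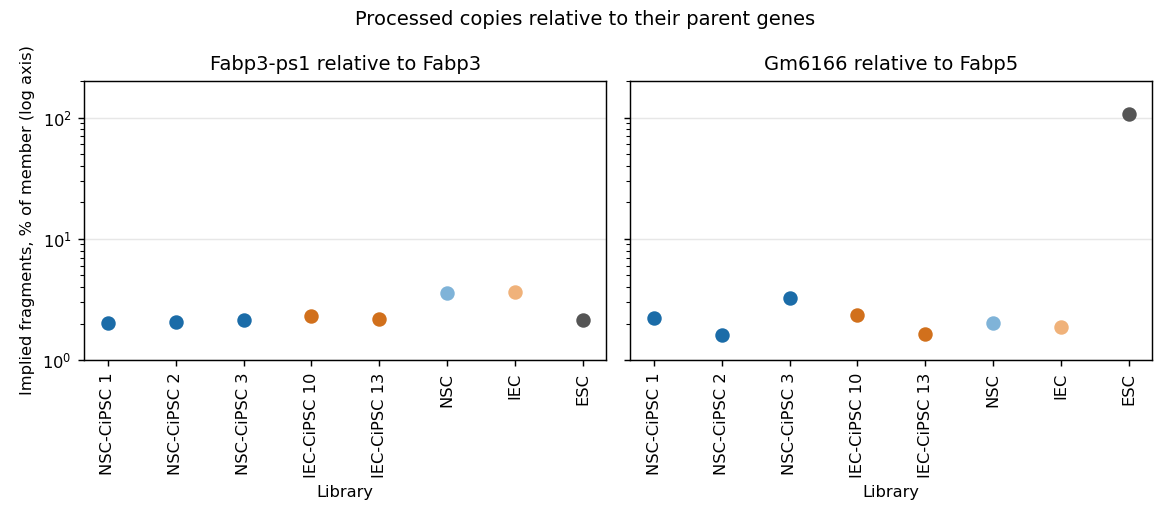
Fragments implied by the deposited intervals for the processed copies Fabp3-ps1 and Gm6166, as a percent of those of Fabp3 and Fabp5 (log axis), in each library. Every point lies between 1.62% and 3.65% except Gm6166 in ESC, at 107%.

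Fabp4, the adipocyte and macrophage form, was found above an FPKM of 1 in the IEC library only. It was listed at 0 in NSC-CiPSC lines 1 and 2 and at 0.223 in line 3, at 0.659 in IEC-CiPSC line 10 and at 0 in line 13, against 0.715 in NSC, 22.2 in IEC (interval 17.8 to 26.7) and 0 in ESC. The values outside IEC imply at most 3 fragments, and their intervals overlap. The difference of mean log2(FPKM + 1) was -4.17 in IEC-CiPSC against IEC, and NSC minus IEC was -3.76. Of the adipocyte, endothelium and macrophage markers examined beside it, the macrophage set alone was high in IEC. The 6 adipocyte markers summed to 0.695 in IEC, with Adipoq at 0.0866 and Plin1 and Cfd listed at 0, and none of the 6 reached an FPKM of 10. The 6 endothelium markers summed to 3.38 in IEC, with Tek at 1.499, Kdr at 1.42, Pecam1 at 0.359, Cdh5 at 0.0991 and Emcn and Tie1 listed at 0, against 19.3 to 46.8 in the CiPSC lines, mostly Pecam1, 0.769 in NSC and 29.7 in ESC. The 6 macrophage markers summed to 3302 in IEC, with Csf1r at 59.7 and Emr1 at 58.3, against 6.41 to 13.2 in the CiPSC lines, 1.40 in NSC and 12.4 in ESC. The part of any of these cells in the Fabp4 level was not tested.

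Fabp3, the heart form, was the gene of the 4 that was high in the CiPSC lines, and it was far lower in ESC. It was at 468, 824 and 689 in NSC-CiPSC lines 1, 2 and 3 (660 ± 179, SD, n = 3) and at 344 and 289 in IEC-CiPSC lines 10 and 13 (316 ± 38.8, SD, n = 2), against 7.04 in NSC, 14.8 in IEC and 33.7 in ESC. All 5 lines lay above all 3 other libraries, and the lowest NSC-CiPSC line lay above the highest IEC-CiPSC line. The order of the group means ran NSC-CiPSC, IEC-CiPSC, ESC, IEC, NSC, and the intervals of all neighbours were apart. Differences of mean log2(FPKM + 1) were 6.32 in NSC-CiPSC against NSC and 4.33 in IEC-CiPSC against IEC. Against ESC they were 4.21 in NSC-CiPSC, which ranked 27 of 17011 from the highest, and 3.19 in IEC-CiPSC, which ranked 50. NSC-CiPSC minus IEC-CiPSC was 1.03. Heart and striated muscle markers were low in the same lines. The 7 examined summed to 1.25 to 4.17 in the NSC-CiPSC lines and 1.45 and 1.78 in the IEC-CiPSC lines, against 0.646 in NSC and 2.78 in ESC. The sum of 143 in IEC came almost wholly from Tnnt2, at 142.

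Counted by direction, Fabp3 was higher and the other 3 genes were lower in every NSC-CiPSC line than in NSC, where 42.4% and 40.8% of all genes tested were higher and lower by this measure. Likewise 1 gene was higher and 3 were lower in both IEC-CiPSC lines than in IEC, against 44.8% and 48.4% of all genes. Of these, Fabp7 rested on 0.790 in IEC (interval 0.0299 to 1.55), against 0.315 in line 10 (0 to 0.842) and 0 in line 13. Fabp4 against NSC likewise rested on 0.715 in NSC (interval 0 to 1.54), against at most 0.223 in the lines. Against ESC, Fabp3 and Fabp7 were higher in all 3 NSC-CiPSC lines and none was lower in all (31.7% and 28% of genes). Fabp3 and Fabp5 were higher in both IEC-CiPSC lines than in ESC and none was lower in both (39.9% and 41.7%). For Fabp5 this rested on leaving out its copies. With their FPKM added, Fabp5 was at 32.2 and 26.4 in IEC-CiPSC lines 10 and 13, against 40.8 in ESC, so its direction is not established. Fabp3 and Fabp7 were higher in all 3 NSC-CiPSC lines than in both IEC-CiPSC lines and none was lower (26.8% and 21% of genes), though for Fabp7 the lowest and highest values concerned were 0.320 and 0.315. Both CiPSC groups were set against the same ESC library. The Fabp7 difference of NSC-CiPSC from ESC rested on line 2, at 0.97 with it and 0.18 without it on the log2 scale. In NSC against IEC, compared by size alone (8-fold or more, with the higher of both values at FPKM 5 or above), Fabp7 was higher (1.92% of genes were) and Fabp4 lower (5.67%), while Fabp3 (-0.97 on the log2 scale) and Fabp5 (0.70) did not reach 8-fold.

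Other genes with a like pattern over the 5 groups were found by the root mean square (RMS) difference between centred group means of log2(FPKM + 1), over 9738 genes that reached an FPKM of 10 in some library. For Fabp3 the nearest were Lefty1, an inhibitor of Nodal signalling, at an RMS of 0.29, Dppa3, a maternal factor of the early embryo, at 0.67, Smtnl1 at 0.85, Lefty2 at 0.91 and the copy Fabp3-ps1 at 0.96, where the median gene was at 2.55. Lefty1 was at FPKM 55.3, 37.9 and 59.8 in NSC-CiPSC lines 1, 2 and 3 and at 30.3 and 34.0 in IEC-CiPSC lines 10 and 13, against 0.144 in NSC, 0.998 in IEC and 2.70 in ESC. For Fabp7 they were the brain proteoglycan gene Ncan (1.06), the acyl-CoA synthetase gene Acsbg1 (1.40), Mlc1, a membrane protein of astrocytes (1.71), Bcan, a second brain proteoglycan gene (1.72), and Mt3, the brain metallothionein gene (1.73), with a median of 4.66.

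For Fabp5 the nearest were Lbh (0.27), the phospholipase gene Pla2g7 (0.36), the transcription factor gene Nfix (0.52), the myelin gene Pmp22 (0.53) and Plat, tissue plasminogen activator (0.53), with a median of 2.70. For Fabp4 they were Casp12 (0.07), Rnase1 (0.12), Foxp2 (0.12), the laminin gene Lama4 (0.14) and Itm2a (0.14), with a median of 1.83. A gene seen in 1 library alone has many neighbours by this measure. Measured over the 8 libraries instead of the 5 group means, 4 of the 5 nearest genes stayed for Fabp3, Fabp5 and Fabp7, and 3 of 5 for Fabp4.

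Fabp5 and Fabp4 lie in 1 cluster on chromosome 3, with Fabp12 starting 232 kb from the Fabp5 start. It also holds Gm9833, a predicted gene, Pmp2, the myelin form, and Fabp9, the testis form. Of these 6 genes, Fabp5 and Fabp4 were the ones to exceed an FPKM of 5 in any library. Gm9833 reached 4.35 in NSC-CiPSC line 1, while Pmp2 (at most 0.0878), Fabp9 (at most 0.265) and Fabp12 (at most 0.0406) stayed near 0 throughout. Fabp5 was thus at 830 and Fabp4 at 22.2 in IEC while the gene nearest to Fabp4, Fabp9, was listed at 0 there.

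**Figure D4:**
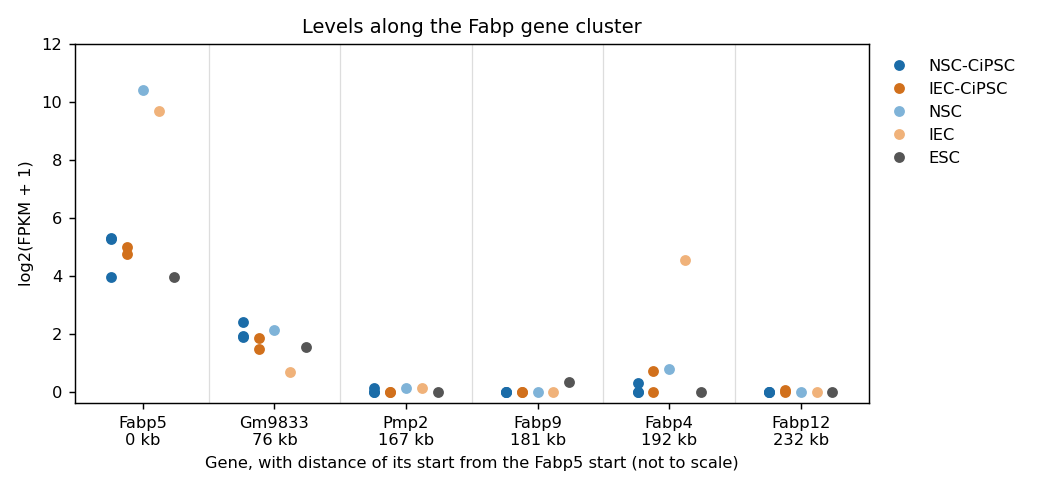
log2(FPKM + 1) of the 6 genes of the chromosome 3 cluster in map order (horizontal axis, each with the distance of its start from that of Fabp5), with 1 point per library and colours for the groups. Fabp5 is high in NSC and IEC, Fabp4 stands out in IEC, and Pmp2, Fabp9 and Fabp12 stay near 0.

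The wider lipid binding family and the pathways around it were tested with limma over all 17011 genes, and a call needed a 2-fold or larger difference with an adjusted p (Benjamini-Hochberg) below 0.05. NSC-CiPSC against NSC called 18.3% of all genes higher and 20.7% lower, and IEC-CiPSC against IEC called 19.1% higher and 26.2% lower. After quantile normalization IEC-CiPSC against IEC had 4080 genes higher and 3674 lower, against 3252 and 4462 as deposited, and its median gene moved to 0.15 on the log2 scale, against -0.03. Where a group is listed at 0, the size of a difference depends on the pseudocount of 1. The family list held 11 relatives, and 7 of them were tested. The 4 left out were Fabp2, the intestinal form (0.745 in IEC and listed at 0 elsewhere), Pmp2, Fabp9 and Fabp12.

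In NSC-CiPSC against NSC, 3 of the 7 tested relatives rose and none fell, with a median difference of 0.31 against 0.03 for all genes. Crabp1 and Crabp2, which bind retinoic acid in the cytosol, rose by 4.12 ± 0.48 (SE, adjusted p = 0.00358) and 2.90 ± 0.38 (adjusted p = 0.00507) on the log2 scale, and Rbp7, a retinol binding gene listed at 0 in NSC, by 1.80 ± 0.33 (adjusted p = 0.0131). Crabp1 was at 23.1, 45.7 and 48.5 in NSC-CiPSC lines 1, 2 and 3, against 1.20 in NSC, and at 47.9 in ESC. In IEC-CiPSC against IEC, Rbp7 rose and 3 fell (median -0.13, all genes -0.03). Fabp1, the liver form, was at 109 in IEC and listed at 0 in every other library (-6.78 ± 0.04, adjusted p = 1.44e-06). Rbp2, the intestinal retinol binding gene, fell by 1.78 (adjusted p = 2.54e-06). Every CiPSC line is listed at 0 for both Fabp1 and Rbp2, so the spread used for them comes from the other genes in the fit. Their p-values do not measure the spread of the single IEC library. Rbp7 (1.24 ± 0.35, adjusted p = 0.0402) lost its call without NSC-CiPSC line 1 or 3 or IEC-CiPSC line 10 or 13, which left 0 relatives higher without line 3, 10 or 13. With no filter on low values 0 relatives were higher, and after quantile normalization 3 were, with 3 lower and a median of 0.44.

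Among genes for fatty acid uptake and activation, falls outnumbered rises in both comparisons, as they did over all genes. Of 16 tested, 9 fell and 2 rose in NSC-CiPSC against NSC (median -1.29), where 20.7% of all genes fell and 18.3% rose. In IEC-CiPSC against IEC 4 fell and none rose (median -0.67, with 7 of 16 at an unadjusted p under 0.05 in limma). There 26.2% of all genes fell and 19.1% rose, so the 4 falls were near the share of all genes. Acsbg1, which activates very long-chain fatty acids in brain, was at 1.66, 5.85 and 6.11 in NSC-CiPSC lines 1, 2 and 3, against 531 in NSC (-6.72 ± 0.66, adjusted p = 0.00229). The scavenger receptor gene Cd36, a fatty acid transporter, fell in both comparisons, by 2.99 and 4.20 on the log2 scale, with no line above 0.0335 FPKM against 7.21 in NSC and 17.4 in IEC. Mfsd2a, a transporter of lysophospholipids that carry docosahexaenoic acid (-3.04), and Slc27a1, a fatty acid transport protein, also fell against NSC, while its relative Slc27a2 rose by 3.06 and was listed at 0 in NSC. Slc27a6 (-3.52), Acsl5 (-2.92) and Slc27a5 (-1.52) fell against IEC. The count of 2 higher against NSC was 1 without NSC-CiPSC line 1 or 3 or IEC-CiPSC line 10 or 13.

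Receptors and regulators that take up fatty acid signals were next. Pparg, the adipocyte receptor, was listed at 0 in all 5 lines and in ESC and was at 0.922 in NSC and 6.19 in IEC. It fell in IEC-CiPSC against IEC (-2.85 ± 0.03, adjusted p = 1.90e-06), with the same limit on the p-value as for Fabp1, since the lines show no spread. Ppara, the receptor that drives oxidation genes, fell in both comparisons (-1.83 against NSC, -2.09 against IEC). Ppard, the receptor linked to Fabp5, was at 13.9, 14.1 and 12.6 in NSC-CiPSC lines 1, 2 and 3 and at 10.5 and 11.7 in IEC-CiPSC lines 10 and 13, against 15.6 in NSC, 13.2 in IEC and 9.14 in ESC. It was not called in any comparison, and is named for its role, after its values were seen. In all, 3 of 12 tested genes rose and 3 fell against NSC (median -0.30), and none rose and 7 fell against IEC (median -1.53, 8 at an unadjusted p under 0.05 in limma). Over all genes 18.3% rose and 20.7% fell against NSC, so the counts there were near these shares. Against IEC 19.1% of all genes rose and 26.2% fell. After quantile normalization 1 of the 12 genes was higher against IEC, and with only genes of FPKM 5 or more, 1 was lower against NSC. The coactivator gene Ppargc1a fell by 4.80 and its relative Ppargc1b rose by 1.48 against NSC, and the retinoic acid receptor gene Rarg rose by 3.94 (adjusted p = 0.00286). Cebpb (-2.97) and Cebpa (-2.84), transcription factors of adipocyte and macrophage development, fell against IEC, in which macrophage markers were high as given above. The part of those cells in the falls was not tested.

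Among lipid droplet and lipolysis genes, 1 of 11 tested rose and 4 fell against NSC (median -0.99), and none rose and 6 fell against IEC (median -1.27, 6 at an unadjusted p under 0.05 in limma). Mgll, which splits monoglycerides, fell in both comparisons (-3.84 ± 0.24, adjusted p = 0.000744 against NSC, and -4.08 ± 0.25, adjusted p = 0.000501 against IEC), as did Lpl, lipoprotein lipase (-1.80 and -3.10). Abhd5, a lipase cofactor, fell by 1.96 against NSC, and Dgat2 (-2.28) and Plin4 (-1.58) fell against IEC. Plin3, a coat protein of small droplets, was at 38.6, 46.3 and 37.3 in NSC-CiPSC lines 1, 2 and 3, against 2.34 in NSC (3.64 ± 0.15, adjusted p = 0.000272). In IEC it was at 48.3. With a pseudocount of 0.1, 2 droplet genes were higher against NSC.

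Of 20 beta-oxidation genes, 10 fell and 1 rose in NSC-CiPSC against NSC (median -1.06), and 5 fell and 1 rose in IEC-CiPSC against IEC (median -0.15). The 5 falls against IEC were near the share of all genes called lower there, 26.2%. Acadl, the long-chain acyl-CoA dehydrogenase, was at 11.0 to 18.0 in the 3 NSC-CiPSC lines, against 239 in NSC (-4.01 ± 0.30, adjusted p = 0.00113), and at 11.9 and 9.84 in IEC-CiPSC lines 10 and 13, against 50.6 in IEC (-2.13 ± 0.31, adjusted p = 0.00614). The very long-chain dehydrogenase gene Acadvl (-3.20 and -1.69) fell in both. Hadhb fell by 2.55 against NSC and Ehhadh, a peroxisomal enzyme, by 1.74 against IEC. The 1 gene that rose against IEC was Acads (1.15, adjusted p = 0.0480), named after its value was seen, and it lost its call without NSC-CiPSC line 3 or IEC-CiPSC line 10 or 13 and with no filter on low values. After quantile normalization 2 genes were higher against IEC. With only genes of FPKM 5 or more, none was higher against NSC.

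Synthesis and desaturation genes gave 2 of 18 higher and 10 lower against NSC (median -1.62) and 2 higher and 2 lower against IEC (median -0.25). Me1, which supplies NADPH, was at 6.65, 10.2 and 9.45 in NSC-CiPSC lines 1, 2 and 3, against 82.3 in NSC (-3.11 ± 0.25, adjusted p = 0.00148). The desaturase gene Fads1 (-2.85) and the acetyl-CoA synthetase gene Acss2 (-3.04) also fell, and Acss2 lost its call without IEC-CiPSC line 10 or 13 (adjusted p up to 0.0525). Acacb, the acetyl-CoA carboxylase tied to mitochondria, rose in both comparisons (2.79 and 2.36). Against IEC the elongase genes Elovl1 (-2.70) and Elovl2 (-2.16) fell and Elovl6 (1.19) rose. The call of Elovl2 was lost without NSC-CiPSC line 3 or IEC-CiPSC line 10 or 13. The count of 10 lower against NSC was 6 without IEC-CiPSC line 10 or line 13. The count of 2 lower against IEC was 5 without NSC-CiPSC line 1 and 4 after quantile normalization. It was 1 without NSC-CiPSC line 3 or IEC-CiPSC line 13 and 1 with a pseudocount of 0.1.

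Genes known as regulators of Fabp7 in radial glia were lower in NSC-CiPSC than in NSC in most cases. Of 12 tested, 8 fell and 1 rose (median -3.26). The gene that rose was Rbpj, at 62.4, 46.8 and 53.1 in NSC-CiPSC lines 1, 2 and 3, against 11.9 in NSC. Hes1 was at 15.4, 21.4 and 24.1 in these lines, on both sides of its level in NSC. The POU factor gene Pou3f3 was at 0.102, 0.225 and 0.166 in NSC-CiPSC lines 1, 2 and 3, against 74.4 in NSC (-6.02 ± 0.08, adjusted p = 1.46e-05), and Hes5, a Notch target, was at 0, 0.876 and 0.684, against 33.3 in NSC (-4.55 ± 0.40, adjusted p = 0.00182). Nfix (-4.91) and Nfia (-4.30), nuclear factor I genes, fell as well. They fell also in IEC-CiPSC against IEC (Nfia -5.29, Nfix -4.82, Nfib -3.34). There 4 of 12 fell, Notch2 among them (-2.09), and 2 rose (median 0.08). Over all genes 26.2% fell and 19.1% rose in that comparison, so these counts were near the shares of all genes. Nfia was at 39.3 and Nfix at 73.3 in IEC, where Fabp7 was at 0.790. The count of 2 higher against IEC was 1 without IEC-CiPSC line 10 or 13 and 4 after quantile normalization.

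**Figure D5:**
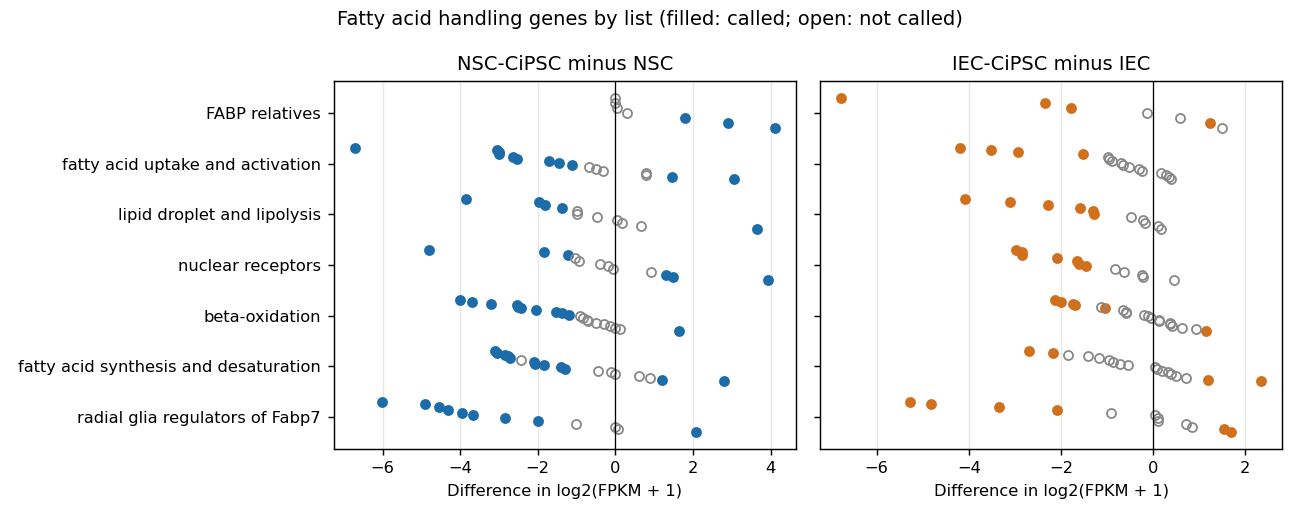
Differences of mean log2(FPKM + 1) for the tested genes of 7 gene lists (rows), in NSC-CiPSC minus NSC (left) and IEC-CiPSC minus IEC (right), with 1 circle per gene, filled where limma called it. Acsbg1 at -6.72 (left) and Fabp1 at -6.78 (right) lie farthest to the left, and 8 of the 12 radial glia regulators are filled on the left side at negative values.

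Against ESC, few genes of these lists differed, as was so for all genes. In NSC-CiPSC against ESC limma called 0.946% of all genes higher and 1.86% lower, and of the 96 listed genes tested it called Rxra alone (4.66 to 5.37 in NSC-CiPSC, against 11.3 in ESC, -1.06, adjusted p = 0.0369). In IEC-CiPSC against ESC it called 1.63% higher and 1.73% lower, and of the listed genes Acacb alone (15.4 and 14.7 in IEC-CiPSC lines 10 and 13, against 5.27 in ESC, 1.36, adjusted p = 0.0336). NSC-CiPSC against IEC-CiPSC called 1.56% of genes higher and 2.76% lower. There Rarg (2.24) and Cpt1b (1.52) were higher and Fabp6 (-1.06), Me1 (-1.68) and Rxra (-1.12) lower, with adjusted p values of 0.0161 to 0.0472. Rxra and Cpt1b were named after their values were seen. Each of these 7 calls was lost without NSC-CiPSC line 2 or 3 or without IEC-CiPSC line 10 or 13. In limma, 18 of the 96 genes were at an unadjusted p under 0.05 in NSC-CiPSC against ESC and 13 in IEC-CiPSC against ESC.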

How the data were processed

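RNA was measured in 8 libraries from total RNA with a NEBNext Ultra kit, per the labels' protocols. The authors deposited 1 table per library with an FPKM value and its 95% interval per gene. TopHat, Cufflinks and mm10 are named in the submitters' processing notes, and versions are not given in the sources used here. Of 39009 entries, the 17011 with a deposited status of OK in all 8 libraries and an FPKM of at least 1 in some library were tested. Group means of log2(FPKM + 1), with a pseudocount of 1 that understates changes of low genes, were fitted with limma 3.58.1 in R 4.3.3 over all 8 libraries, with 3 residual degrees of freedom, so NSC, IEC and ESC are assumed to vary like the lines. Benjamini-Hochberg adjustment ran over all tested genes, and the fit was tested on simulated data. Implied fragments were computed from each interval, as the square of 2 FPKM over its upper half-width, and cover counting error only. Coding sequences were aligned with MAFFT 7.526 and copies were found with BLAST 2.17.0. The members and gene lists were chosen with earlier results of these data known. Genes named were the 4 members, their relatives, up to 4 called genes of each other list with the largest change per source comparison, the 5 nearest genes of each member, and markers; some named genes are not reported here. Alternatives were another pseudocount, other filters, quantile normalization, scaling by median-of-ratios size factors and leaving out each line.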

Additional observations from a re-analysis of the deposited data

Results flagged for a closer look

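The effect of the route, NSC-CiPSC minus NSC set against IEC-CiPSC minus IEC, was tested in limma as a difference of differences for all 17011 genes, of which 30.5% were called (17.6% more positive and 12.9% more negative in NSC-CiPSC against NSC) by the same 2 thresholds as above. Of 44 named genes outside the 4 members, 27 were called. Apart from the relatives of the binding proteins, these genes were named for a large change in one of the source comparisons in the same libraries, which largely fixes a difference between the comparisons, so the count supports nothing and the values are a description. The values are log2 differences, positive where the change was more positive in NSC-CiPSC against NSC, and the single NSC and IEC libraries enter each of them in full. Among relatives of the binding proteins these were Fabp1 (6.78), Crabp2 (3.03), Crabp1 (2.62) and Rbp2 (1.78). Among uptake and activation genes they were Acsbg1 (-6.88), Slc27a2 (3.58), Slc27a6 (2.40), Slc27a5 (2.32), Mfsd2a (-2.35), Slc27a1 (-2.35) and Cd36 (1.21). Droplet genes were Plin3 (3.85), Plin4 (1.61) and Lpl (1.29). Receptors and regulators were Rarg (4.56), Cebpb (3.89), Pparg (1.90) and Ppargc1a (-3.19). In beta-oxidation they were Hadhb (-1.96), Acadl (-1.89), Acadvl (-1.51) and Ehhadh (1.72), in synthesis Me1 (-3.20) and Elovl1 (1.30), and among radial glia regulators Pou3f3 (-6.06), Hes5 (-4.66) and Notch2 (2.17). Of the 27, 17 were more positive and 10 more negative in the NSC route. The calls of Acadl, Acadvl, Crabp1, Crabp2, Ehhadh, Elovl1, Hes5, Lpl, Mfsd2a, Slc27a1 and Slc27a2 were lost in at least 1 of 10 alternatives, with an adjusted p of up to 0.259, and 16 genes kept theirs in all 10.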

How the results depend on the processing

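With the FPKM of processed copies added, the Fabp5 difference from ESC was -0.49 in NSC-CiPSC and -0.47 in IEC-CiPSC. That sum mixes values scaled to different lengths, so the change of sign is not established. Fabp3 moved by less than the spread between lines in all 55 alternative values, but for many of them this was fixed in advance. The filters and the lines outside a comparison leave its value unchanged. Leaving out 1 line of a group moves the mean of that group by less than its SD. Fabp3 lay at 6.15 to 6.55 in NSC-CiPSC against NSC without single lines. Fabp7 in NSC-CiPSC against ESC was 0.97, and 0.18 without line 2. Leaving out 1 line at a time gave 5959 to 6865 called genes in NSC-CiPSC against NSC (6639 with all lines) and 6554 to 8007 in IEC-CiPSC against IEC (7714). It gave 187 to 720 in NSC-CiPSC against ESC (478), 153 to 890 in IEC-CiPSC against ESC (572) and 99 to 789 in NSC-CiPSC against IEC-CiPSC (735). Of 700 list counts, 81 moved by over 1.5 times. Of 1434 values of single pathway genes, 145 lost the call and 0 reversed. No paired analysis was possible because NSC, IEC and ESC have 1 library each and the labels do not say which animals the lines came from. Precision is limited by 1 library each of NSC, IEC and ESC, and for low genes such as Fabp4 outside IEC by at most 3 implied fragments.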
